A study of Homo sapiens with 10 samples.

Results

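The CDK inhibitors are 7 protein-coding genes, found by their symbols among the 60603 genes (19975 of them protein-coding) that both tables list. They fall into the Cip/Kip family, with the 3 genes CDKN1A, CDKN1B and CDKN1C, and the INK4 family, with the 4 genes CDKN2A, CDKN2B, CDKN2C and CDKN2D. Their transcripts were measured by mRNA-seq in NB4, an established human acute promyelocytic leukemia cell line, in 2 separate experiments with 10 libraries. In the GSE1 knockdown experiment, NB4 cells carried the lentiviral pLKO.1 puro vector, either empty (EV) or with the hairpin shA1 or shB2 against GSE1, and were harvested 48 h after transduction. In the LSD1 inhibition experiment, NB4 cells without any vector named in the labels received DMSO or 2 µM of the LSD1 inhibitor MC2580 for 24 h. Each condition was sequenced in 2 biological replicates, giving 6 libraries in the first experiment and 4 in the second.

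CDK inhibitors hold back the cyclin-dependent kinases that carry a cell from G1 into S phase. Cip/Kip proteins bind complexes of cyclins with CDK2 and related kinases, while INK4 proteins bind CDK4 and CDK6 and keep them from the D cyclins. The active kinases phosphorylate RB1 and its relatives, which releases the E2F factors. In the myeloid lineage, exit from the cell cycle accompanies terminal maturation of the promyelocyte.

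The value reported for every gene is the authors' base mean, that is, the mean over all libraries of an experiment of the read counts after DESeq2 normalization. The knockdown table gives it in a column for each hairpin, and the values of these columns were equal for 60603 of 60603 genes, so it was taken as the mean over all 6 libraries, EV and both hairpins included. The base mean carries no value per library or per condition, so that neither an SD nor a test between conditions can be given from it, and the depth of each library is not known. The tables also hold the authors' own comparisons between conditions, which were not used here. All values below therefore describe an experiment as a whole, with control and perturbed cells averaged together. In bulk RNA of this kind, fewer cells expressing a gene and less RNA per cell cannot be told apart.

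The base means of all genes summed to 40543130 in the knockdown experiment and 41201112 in the inhibition experiment. Of the 19975 protein-coding genes, 12354 reached a base mean of 10 in both experiments. Of 9 promyelocyte genes, 8 reached it in each experiment, led by MPO at 506765 and 824818. ELANE, the neutrophil elastase gene, was the exception, with base means of 1.10 and 3.87. Of 10 markers of T, B, erythroid, epithelial and fibroblast cells, 6 reached a base mean of 10 in the knockdown experiment and 5 in the inhibition experiment, and they ranged from 0 to 866 and from 0 to 869. The highest was CD3D, a T cell receptor subunit, whereas its partner CD3E stood at 1.55 and 2.98. The epithelial markers EPCAM, at 432 and 403, and KRT8, at 152 and 143, came next. GSE1, the gene that the hairpins target, had base means of 2963 and 4441. Because the first averages EV with both hairpins, it does not check the knockdown.

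Among the Cip/Kip genes, CDKN1B was the most abundant in both experiments. CDKN1B (ENSG00000111276.11, chromosome 12, 12685498 to 12722369, plus strand) encodes p27, an inhibitor whose protein is kept low in cycling cells by SKP2-dependent degradation. Its base mean was 1835 in the knockdown experiment and 1409 in the inhibition experiment. These placed it at the percentiles 73.2 and 69.2 of the protein-coding genes detected above 0, of which there were 17337 and 17091. Its level therefore lay in a similar part of the distribution in both experiments.

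CDKN1A (ENSG00000124762.13, chromosome 6, 36676460 to 36687337, plus strand) encodes p21, a member of the family that is induced by DNA damage and in maturing myeloid cells. Its base mean was 1151 over the 6 knockdown libraries and 221 over the 4 inhibition libraries. It thus stood above the median protein-coding gene in the former, at the percentile 64.8, and below it in the latter, at the percentile 44.4. The medians themselves were close, at 409 and 396. The percentile depends on the genes ranked, and CDKN1A in the inhibition experiment stood at 69.0 among all genes and at 24.5 among protein-coding genes whose base mean reached 10.

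CDKN1C (ENSG00000129757.13, chromosome 11, 2883213 to 2885775, minus strand) encodes p57, an imprinted gene product known for quiescent stem cells. It was the least abundant Cip/Kip gene, with base means of 161 and 26.4 in the knockdown and inhibition experiments, at the percentiles 42.4 and 31.7. CDKN1C lay below the median protein-coding gene in both, but among all genes its percentiles were 68.4 and 57.2, and among protein-coding genes whose base mean reached 10 they were 20.8 and 7.20.

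Within the INK4 family, the transcripts came almost wholly from CDKN2C and CDKN2D. CDKN2C (ENSG00000123080.12, chromosome 1, 50960745 to 50974634, plus strand) encodes p18, which binds CDK6 and CDK4. It had a base mean of 1838 in the knockdown experiment and 1615 in the inhibition experiment, at the percentiles 73.2 and 71.7. CDKN2D (ENSG00000129355.6, chromosome 19, 10566460 to 10569059, minus strand) encodes p19, and its base means were 1238 and 954, at the percentiles 66.1 and 62.5. Both genes exceeded the median protein-coding gene in each experiment.

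The neighbouring genes CDKN2A and CDKN2B on chromosome 9 were at or near the limit of detection. CDKN2A (ENSG00000147889.17, 21967752 to 21995301, minus strand) encodes p16 and, from another first exon, the ARF protein, and the tables give 1 value for both products. Its base mean was 2.80 in the knockdown experiment, which equals 16.8 normalized counts summed over 6 libraries, and 0.71 in the inhibition experiment, or 2.85 normalized counts over 4 libraries. CDKN2B (ENSG00000147883.12, 22002903 to 22009305, minus strand) encodes p15. Its base mean was 0 in the knockdown experiment, and its base mean of 0.66 in the inhibition experiment equals 2.66 normalized counts over 4 libraries. A total of 0 counts allows up to 3, that is, a base mean of up to 0.50 over 6 libraries and of 0.75 over 4. For CDKN2B a difference between the experiments was therefore not detectable at this depth. For CDKN2A and CDKN2B no ratio was computed, since both were below a base mean of 10. These limits cover counting error only and take 1 read as 1 normalized count.

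CDKN2A and CDKN2B are paralogs, which bears on how their reads could be assigned. The longest exact run common to their canonical transcripts in GENCODE release 44 (GRCh38, the assembly also called hg38) is 80 bases long. Of the windows of 50 bases in the canonical CDKN2A transcript, 31 of 929 (3.34%) also occur in CDKN2B, and of those in CDKN2B, 31 of 3804 (0.815%) occur in CDKN2A. RSEM divides reads that match several transcripts by estimation, so the few counts of CDKN2A and CDKN2B are uncertain in how they were divided. CDKN1A, CDKN1B, CDKN1C, CDKN2C and CDKN2D had 0 windows of 50 bases in common with annotated transcripts of any other gene. Windows were compared in the direction of the transcripts only, and matches to the opposite strand were not searched. Between members of the family other than CDKN2A and CDKN2B, the longest common run was 16 bases, for CDKN1B and CDKN1C.

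**Figure D1:**
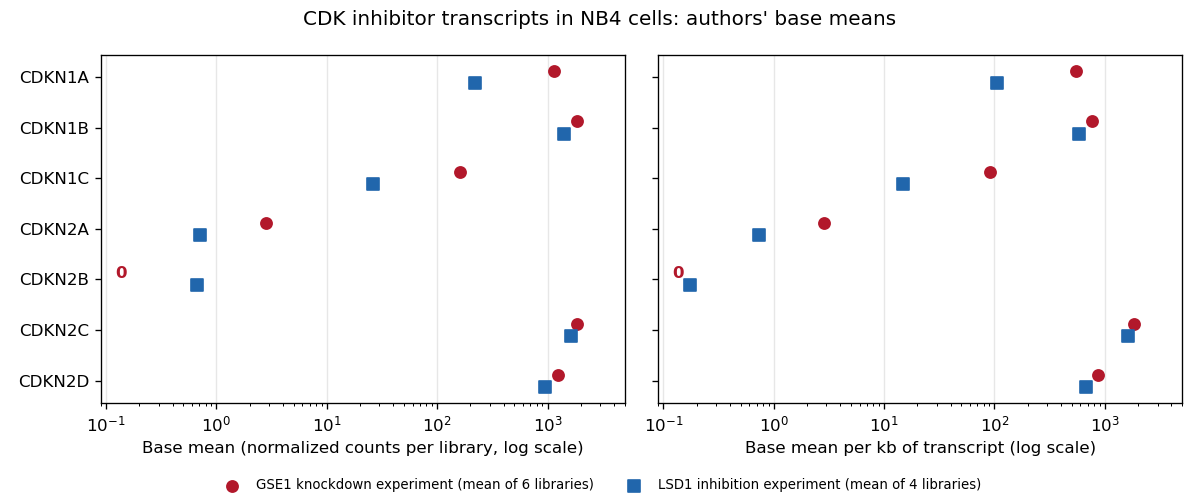
Base mean of each CDK inhibitor gene (left, normalized counts per library) and the same per kilobase of canonical transcript (right), both on log axes, in the GSE1 knockdown experiment (red circles, mean of 6 libraries) and the LSD1 inhibition experiment (blue squares, mean of 4 libraries). A printed 0 marks CDKN2B at 0 in the knockdown experiment. The circles of CDKN1A and CDKN1C sit well to the right of their squares, at 1151 against 221 and 161 against 26.4, while those of CDKN1B, CDKN2C and CDKN2D lie close together.

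Levels of different genes were compared after division by the length of the canonical transcript, which was 2117 bases for CDKN1A, 2411 for CDKN1B, 1773 for CDKN1C, 995 for CDKN2C and 1425 for CDKN2D. The order of the 5 members with a base mean over 10 was then the same in both experiments: CDKN2C, CDKN2D, CDKN1B, CDKN1A and CDKN1C. CDKN2A and CDKN2B lay below them. In the inhibition experiment they were not ordered between themselves because both were under 3 summed counts. In the knockdown experiment CDKN2A was above CDKN2B, at 16.8 against 0 summed normalized counts, apart from the uncertain division of shared reads. CDKN2C led with 1847 per kb in the knockdown experiment and 1623 in the inhibition experiment, at the percentiles 90.0 and 88.2 of the protein-coding genes on this scale. CDKN2D followed at 869 and 670 per kb, so that CDKN2C was 2.13 and 2.42 times as high.

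CDKN1B came next at 761 and 584 per kb. CDKN2D exceeded it by only 1.14-fold in the knockdown experiment and 1.15-fold in the inhibition experiment, a gap without replicate error to judge it by. Without division by length, CDKN1B was 1.48 times as high as CDKN2D in both. The order of CDKN2D and CDKN1B is therefore not settled by these values. The lead of CDKN2C over CDKN1B also rested largely on length, and was 1.00-fold in the knockdown and 1.15-fold in the inhibition experiment without that division. On the undivided scale CDKN2D exceeded CDKN1A by only 1.08-fold in the knockdown experiment, so these places in the order are not firm either.

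CDKN1A had 544 and 105 per kb, and CDKN1C 91.0 and 14.9. The distance between CDKN1B and CDKN1A thus differed between the experiments, at 1.40-fold in the knockdown and 5.59-fold in the inhibition. CDKN1A and CDKN1C, on the other hand, kept a similar distance from each other, 5.97-fold and 7.02-fold. Of the length-scaled Cip/Kip signal, CDKN1A made up 38.9% in the knockdown experiment and 14.9% in the inhibition experiment, and CDKN1B made up 54.5% and 83.0%. In the INK4 family the division hardly differed, with CDKN2C at 67.9% and 70.8% and CDKN2D at 32.0% and 29.2%.

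To set the experiments side by side, each base mean was divided by the sum of its own table, and the knockdown value was divided by the inhibition value. The tables were normalized separately, and cells of the experiments differ in vector transduction, in perturbation and in hours of treatment, which cannot be told apart. The ratio is accordingly a description without a test, and not a comparison of a hairpin with EV or of MC2580 with DMSO. Over the 12354 protein-coding genes whose base mean reached 10 in both tables, the median ratio was 1.06, and the central 90% of genes lay between 0.635 and 1.99.

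The 5 members that could be compared divided into a pair far above this range and 3 genes inside it. CDKN1A had a ratio of 5.28, exceeded by 28 of the 12354 genes. CDKN1C had a ratio of 6.20, exceeded by 18 genes. The ratios of CDKN1B, CDKN2D and CDKN2C were 1.32, 1.32 and 1.16, at the percentiles 75.1, 74.7 and 60.4. Hence 2 of 5 members had a ratio above 2, against 4.89% of all genes compared, and 0 of 5 had a ratio below 0.5, against 1.26%.

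A ratio above 2 can be read in terms of conditions by arithmetic alone. As the inhibition experiment has 2 conditions of equal size and counts cannot be negative, neither DMSO nor MC2580 can have averaged more than 2 times the base mean. This bound is 443 for CDKN1A and 52.8 for CDKN1C, and the knockdown base means, brought to the scale of the inhibition table, were 1170 and 164. On this scale the mean over the knockdown libraries was thus above that of DMSO cells and above that of MC2580 cells for both genes, which follows from their ratios and is no further evidence. CDKN2A also lay above its bound, at 2.84 against 1.43, but from 2.85 normalized counts in the inhibition experiment, and nothing was read from it. For CDKN1B, CDKN2C and CDKN2D, with ratios under 2, no such statement can be made.

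**Figure D2:**
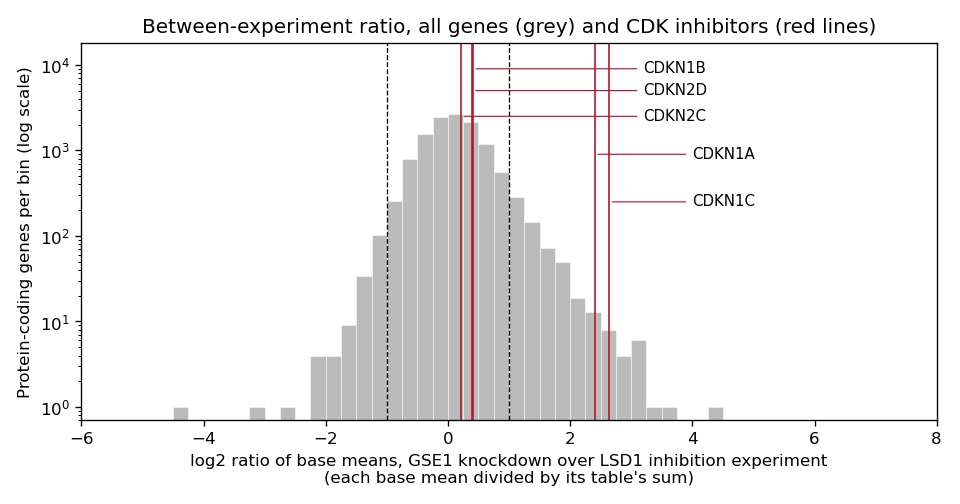
Distribution of the log2 ratio of base means, GSE1 knockdown over LSD1 inhibition experiment, over 12354 protein-coding genes (grey bars, number of genes per bin of 0.25 on a log axis). Red lines mark the 5 CDK inhibitors whose base mean reached 10 in both tables, and dashed lines mark ratios of 0.5 and 2. CDKN1A and CDKN1C lie in the right tail at 2.40 and 2.63 on the log2 scale, and CDKN1B, CDKN2C and CDKN2D lie between 0.21 and 0.40.

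The genes on which these inhibitors act were taken from a list of 28 cell cycle genes. A base mean of 10 in each experiment was reached by 12354 of 19975 protein-coding genes and by all 28 of these. In the knockdown experiment 24 of them, and in the inhibition experiment 25, stood above the median protein-coding gene, against 4 and 3 of the 7 CDK inhibitors. The median base mean of the list was 2823 and 1861. The median ratio between the experiments was 1.16 for the list and 1.06 over all genes compared.

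Of the kinases that INK4 proteins bind, CDK4 was abundant, while CDK6 lay near the median protein-coding gene per kb, at the percentiles 50.7 and 50.2. Its canonical transcript is long, at 11663 bases, and by base mean CDK6 stood higher, at the percentiles 69.0 and 67.9. CDK4 had 6274 per kb in the knockdown experiment and 8628 in the inhibition experiment, more than any inhibitor, whereas CDK6, which INK4 proteins also bind, had 125 and 112. Of the D cyclins that compete for these kinases, CCND3 was the highest at 8780 and 7964 per kb, followed by CCND2 at 1328 and 1249 and CCND1 at 206 and 256. CDKN2C and CDKN2D thus stood above CDK6 and below CDK4 on this scale, whereas CDKN2A, at 2.86 and 0.73 per kb, and CDKN2B stood below both kinases. Without division by length, CDKN2D was below CDK6, at base means of 1238 and 954 against 1456 and 1309. CDKN2C stayed above CDK6, at 1838 and 1615. The order of CDKN2D and CDK6 is therefore not settled by these values.

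CDK2, the main partner of the Cip/Kip proteins in G1, had 1556 and 1972 per kb. Its cyclins were CCNE1 at 320 and 275, CCNE2 at 151 and 92.2, CCNA2 at 1915 and 1737, and CCNA1, a cyclin of germ cells and myeloid leukemia, at 1663 and 1090. SKP2 and CKS1B, which mark p27 for degradation, had 746 and 670 per kb and 1974 and 1981 per kb. CDK1, CCNB1 and CCNB2, which drive mitosis, lay between 1311 and 4284 per kb over both experiments.

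RB1, the pocket protein that restrains E2F, had a ratio of 2.42 between the experiments, from base means of 2989 and 1255. E2F7, a repressive E2F, had a ratio of 2.18, with low base means of 28.0 and 13.0. RB1 and E2F7 were the 2 genes of the 28 (7.14%) with a ratio above 2, a share near the 4.89% of all genes compared, and 0 genes had one below 0.5, against 1.26%. The relatives RBL1 and RBL2 had ratios of 1.33 and 1.09. The ubiquitin ligase gene MDM2 and its relative MDM4 had ratios of 1.27 and 0.642. Among the 8 promyelocyte genes compared, 0 had a ratio above 2 and 1 had a ratio below 0.5, namely AZU1 at 0.405, beside the same shares of 4.89% and 1.26% over all genes. PRTN3, MPO and CTSG were also low, with ratios of 0.586, 0.624 and 0.634, at the percentiles 3.04, 4.49 and 4.95. The remaining genes RARA, PML, CEBPA and CD33 had ratios of 0.872, 1.04, 1.05 and 1.07. The part of these differences in the values of CDKN1A and CDKN1C was not tested.

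**Figure D3:**
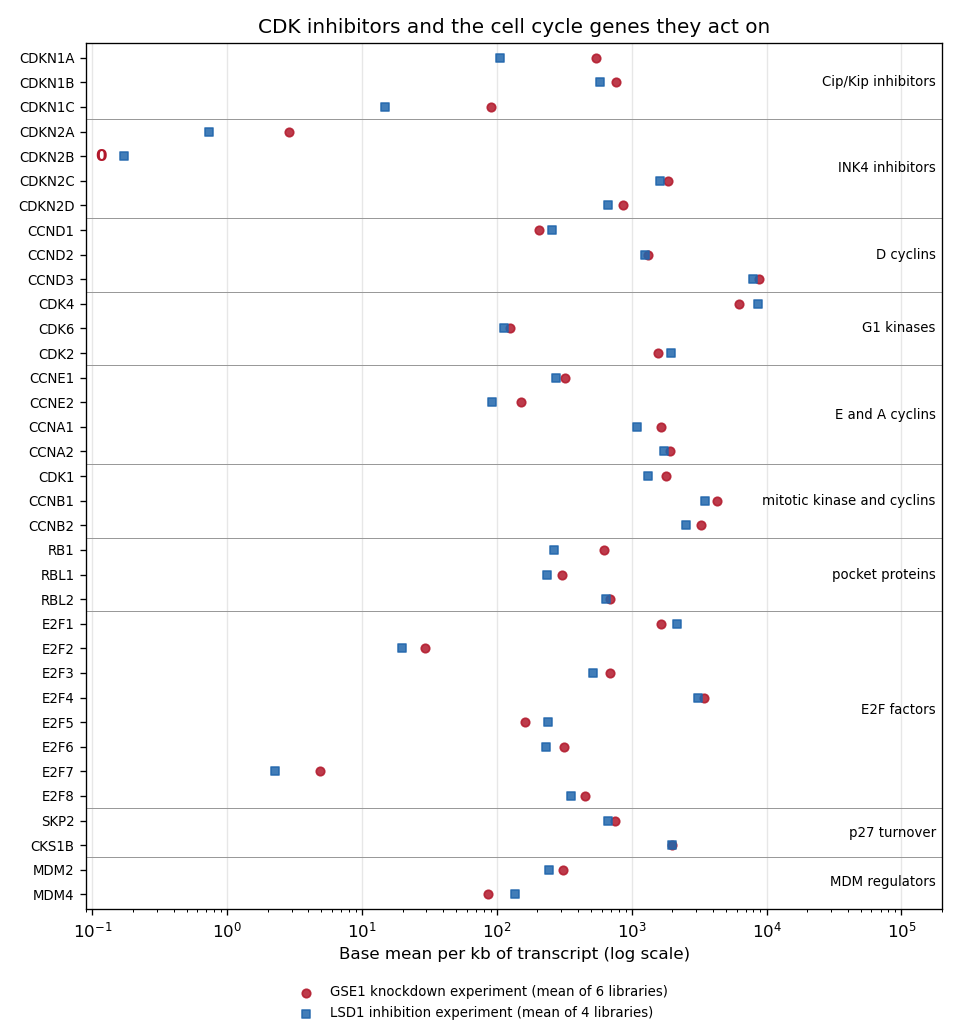
Base mean per kilobase of canonical transcript (log axis) of the 7 CDK inhibitors and 28 cell cycle genes, grouped by role, in the GSE1 knockdown experiment (red circles, mean of 6 libraries) and the LSD1 inhibition experiment (blue squares, mean of 4 libraries). CDKN2A and CDKN2B lie left of every cell cycle gene except that the CDKN2A circle, at 2.86, lies right of the E2F7 square at 2.28, and CCND3 and CDK4 lie farthest to the right.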

How the data were processed

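Total RNA of NB4 cells was made into libraries with the TruSeq RNA v2 kit. The authors mapped reads to hg38 with STAR (version 2.7 per the labels), obtained gene-level values from RSEM and ran DESeq2; the versions of both, and the annotation release, are not given in the sources used here. The signal values used are the deposited base means, which the authors' DESeq2 fits give as means of normalized counts over libraries. For the knockdown the column headed BaseMean 4-2 (the hairpin shB2) was read, which equals BaseMean 3-1 (shA1) for every gene and was therefore taken as the mean over the 6 libraries of EV, shA1 and shB2; that of the inhibition covers the 4 libraries of DMSO and MC2580. The tables otherwise hold log2 fold changes, standard errors, Wald statistics and p-values of the authors' own comparisons, which were not used. As no value per library is given, the planned edgeR test was not run, and no depth per library was known.

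The 7 members were found by symbol, and all were named, as was a list of 28 cell cycle genes; 1 other gene of that list is not reported here. Members and lists were chosen with earlier results of these data known. Percentiles are among protein-coding genes with a base mean above 0. Lengths and positions are those of the canonical transcripts and genes in GENCODE release 44, in which 60306 of 60603 gene identifiers (version number removed) were found, all 7 members among them. Ratios between the experiments required a base mean of 10 or more in both tables. Their calculation was checked on simulated counts with planted differences and counting error only. That check holds no replicate or batch variation, so it says nothing on how reliable the observed ratios are. Calculations used Python 3.11.15, numpy 2.4.6 and pandas 2.3.3. MC2580 is spelled MC280 in some of the labels.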

Additional observations from a re-analysis of the deposited data

How the results depend on the processing

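No paired analysis was possible because the tables used carry no column per replicate. For the same reason the planned edgeR test was not run, nor was a DESeq2 fit, a filter on low counts or the omission of single replicates. Of 52 recomputed values, 31 stayed within 1.5 times the value reported and on the same side of 1, 17 moved further and 4 changed direction. The number of CDK inhibitors above the median gene in the inhibition experiment rose from 3 to 5 when all genes, and not only protein-coding ones, were ranked, and fell to 2 among protein-coding genes whose base mean reached 10. The ratio of CDKN2C to CDKN1A per kb of transcript, 3.40 in the knockdown and 15.5 in the inhibition experiment, was 1.60 and 7.29 without division by length and 1.56 and 7.12 per kb of coding sequence. CDKN1B was lower than CDKN2D per kb of transcript (0.876 and 0.873 times) but higher without division by length (1.48 in each) and per kb of coding sequence (1.24 in each). The ratio between experiments was 5.20 for CDKN1A and 6.11 for CDKN1C without scaling, and 4.95 and 5.82 after division by the median ratio of genes. Each alternative multiplied the ratios of all genes by the same factor, too close to 1 to bring either gene under 2. That 2 members stayed above 2 under both was therefore fixed in advance and is no support. The values counted above as staying within 1.5 times include these ratios. They also include the percentile of CDKN2B in the knockdown experiment, which was 0 in every ranking because its base mean was 0. The number of values that stayed is therefore no measure of how stable the results are. Only counting error and the lengths of annotated transcripts, not replicate error, could be considered.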
